A study of Arabidopsis thaliana with 12 samples.

Results

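The 6 genes described here encode stress-responsive ethylene response factors (ERFs) of Arabidopsis thaliana: ERF1A (AT4G17500), ERF2 (AT5G47220), ERF5 (AT5G47230), ERF6 (AT4G17490), ERF104 (AT5G61600) and ERF105 (AT5G51190). They were taken by gene identifier from a count table that covers 23174 genes, and each of the 6 had 1 row, hence 1 transcript, in it. RNA-seq libraries came from rosette leaves of 3-week-old plants of ecotype Col-0 grown on soil at 23 °C. The 4 groups of 3 samples were the mutant atcyp18-2 after 1 h at 47 °C, wild type (WT) after 1 h at 47 °C, atcyp18-2 without heat, and WT without heat. No control is labelled as held at 23 °C during the hour of heat, so heat and the passing of that hour cannot be told apart. The labels do not describe the atcyp18-2 allele, and they do not say whether replicates came from separate plants, so p-values reflect only how these samples vary, and part or all of that variation may be technical.

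ERFs are plant transcription factors that bind DNA through a single AP2/ERF domain, many of them at the GCC box of defence genes. The members of group IX studied here are rapidly transcribed regulators. ERF1A and ERF2 activate GCC-box promoters, ERF6 and ERF104 are phosphorylated by the stress kinases MPK3 or MPK6, ERF5 and ERF6 restrain leaf growth under osmotic stress, and ERF105 contributes to freezing tolerance. Their transcripts are known to change within minutes of wounding, touch, cold, pathogen signals or ethylene.

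Libraries held 9075387 to 12493977 reads over 1 transcript per gene, with 59.87 to 70.16% from the chloroplast, which left 2572364 to 4348395 nuclear reads. Within every group the libraries divided along 1 shared component that held 52.6% of the within-group variance. The 5 libraries with a negative score on it (atcyp18-2 heat replicate 2, WT heat replicate 3, atcyp18-2 control replicate 1, WT control replicates 1 and 2) had a psbA share of 21.96 to 26.74%, and the 7 others had 28.73 to 38.65%. The mutated gene AtCYP18-2 (AT2G36130), a cyclophilin, was lower in atcyp18-2 than in WT without heat, with a log2 difference of -2.55 ± 0.25 (SE; edgeR adjusted p = 0.00348), and stood at -1.13 after heat (not called). The call without heat ended with library totals (-2.66, edgeR adjusted p = 0.107) and without atcyp18-2 control replicate 3 (-2.56, edgeR adjusted p = 0.0527). With heat AtCYP18-2 rose in atcyp18-2 (log2 fold change 1.59, called) and was at 0.17 in WT (not called). The rise stayed called without any 1 library (edgeR adjusted p = 0.000596 to 0.00569), but not with library totals. The heat-shock transcripts HSP70, HSP101 and HSFA2 rose in both genotypes, by log2 fold changes of 8.99 to 11.41 in atcyp18-2 and 9.50 to 11.59 in WT. Among cell type markers, mesophyll transcripts dominated (5931 to 9570 CPM summed over 3 genes), whereas 3 flower markers summed to 1 to 13 reads and the seed marker CRA1 had 0 to 4 reads per library. The root marker PYK10 fell after heat in both genotypes (log2 fold change -1.04 in atcyp18-2 and -1.44 in WT), while PER57, another root marker, had 0 reads in 11 of 12 libraries.

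The ERF transcripts were scarce, at 1 to 164 reads per gene and library. Levels are given as CPM, counts as deposited relative to a library total that was scaled by TMM, a normalization that assumes most genes unchanged. The deposited counts appear to hold 1 added read per row, which CPM keep and the printed read numbers leave out. The added read lifts the lowest levels most and narrows ratios between libraries. The quasi-likelihood test of edgeR was run over 16636 genes, and "called" means an adjusted p below 0.05 after Benjamini-Hochberg correction. All 6 ERF genes passed the filter on low counts.

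In atcyp18-2, 2 of the 6 ERF transcripts, ERF105 and ERF5, fell with heat, where 32.2% of all genes were called and 15.3% were called lower. ERF105 fell 4.92-fold and ERF5 fell 3.69-fold. In WT 0 of 6 were called with heat (23.5% of all genes), and likewise 0 of 6 between atcyp18-2 and WT after heat (0.222%) and without heat (0.024%). The heat responses of the genotypes were not shown to differ for any of the 6 (0% of all genes). In whole-leaf RNA, fewer cells of a type and less RNA per cell cannot be told apart.

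**Figure D1:**
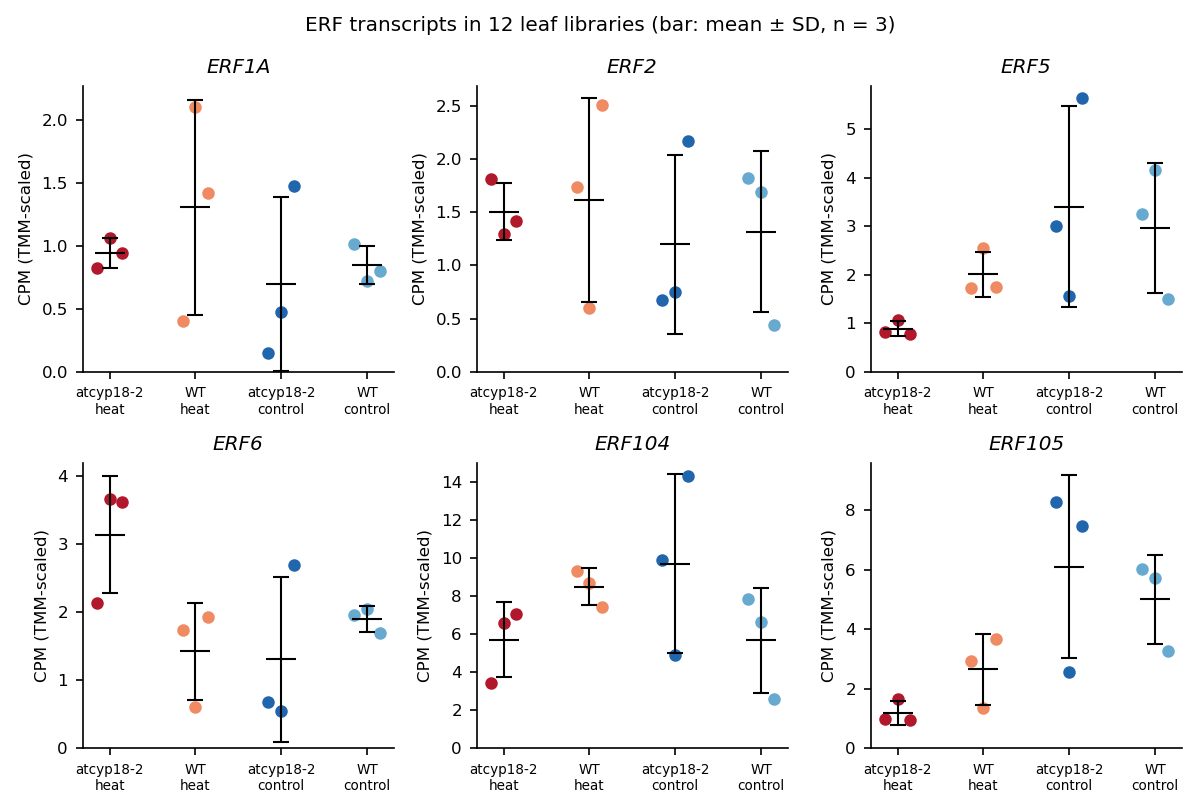
Level of each ERF transcript in CPM (linear axis, starting at 0, TMM-scaled) in every library, with 3 points per group in replicate order and bars for mean ± SD (n = 3). ERF5 and ERF105 in heated atcyp18-2 leaves lie between 0.785 and 1.65 CPM, below all 3 atcyp18-2 controls of the same gene, while the groups of WT overlap for every gene.

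ERF105 showed the lowest heated level relative to control. It had 0.987, 1.65 and 0.942 CPM in heated atcyp18-2 leaves (5, 13 and 5 reads), against 8.27, 2.58 and 7.47 CPM in atcyp18-2 controls (109, 37 and 85 reads). All heated libraries lay below all controls, and the lowest control, replicate 2, was the nearest to them. With heat the log2 fold change in atcyp18-2 was -2.30 ± 0.51 (SE, n = 3 per group; edgeR adjusted p = 0.00403). It remained called without any one of the 12 libraries, at -2.67 to -2.02 (edgeR adjusted p = 0.000587 to 0.0196). As a plain share of all reads, without TMM scaling, the transcript took 0.551, 1.39 and 0.533 ppm after heat and 11.95, 2.96 and 8.64 ppm without heat in atcyp18-2. Those groups do not overlap either.

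In WT, ERF105 had 2.94, 1.35 and 3.68 CPM after heat (21, 8 and 43 reads) and 6.02, 5.72 and 3.29 CPM without heat (88, 94 and 36 reads). Heated replicate 3 lay above control replicate 3, so the groups overlap. It amounted to a log2 difference of -0.88 ± 0.44 (95% interval -1.83 to 0.08; edgeR adjusted p = 0.177). After heat ERF105 averaged 1.19 ± 0.40 CPM in atcyp18-2 and 2.66 ± 1.19 CPM in WT (SD, n = 3 each), a log2 difference of -1.16 ± 0.55 (edgeR adjusted p = 0.483). Without heat it averaged 6.11 ± 3.08 CPM in atcyp18-2 and 5.01 ± 1.498 CPM in WT, a log2 difference of 0.27 ± 0.41 (edgeR adjusted p = 1).

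ERF5 fell in heated atcyp18-2 as well. It had 0.822, 1.06 and 0.785 CPM after heat (4, 8 and 4 reads), against 3.01, 1.56 and 5.65 CPM in atcyp18-2 controls (39, 22 and 64 reads). Every heated library was below every control, and the heated libraries spanned a much narrower range than the controls, whose highest value was 3.62 times the lowest. On the log2 scale heat changed it by -1.88 ± 0.53 (edgeR adjusted p = 0.0164). This call rested on few libraries: it was lost without heated atcyp18-2 replicate 1 (-1.84, edgeR adjusted p = 0.0506), heated replicate 3 (-1.82, adjusted p = 0.0515) or control replicate 3 (-1.32, adjusted p = 0.066).

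WT libraries had 1.74, 2.55 and 1.76 CPM of ERF5 after heat (12, 16 and 20 reads) and 3.25, 4.16 and 1.51 CPM without heat (47, 68 and 16 reads). Control replicate 3 lay below all heated WT libraries, whereas control replicates 1 and 2 lay above them. The log2 fold change in WT was -0.60 ± 0.46 (95% interval -1.59 to 0.39; edgeR adjusted p = 0.378). With library totals, under which the median of all genes was -0.77 in WT, ERF5 (-1.41, edgeR adjusted p = 0.0441) and ERF105 (-1.63, edgeR adjusted p = 0.0365) were called lower in WT as well. After heat, all atcyp18-2 libraries were below all WT libraries, at 0.890 ± 0.150 CPM in atcyp18-2 and 2.02 ± 0.465 CPM in WT (SD, n = 3 each). That difference, a log2 difference of -1.13 ± 0.58, was not called (edgeR adjusted p = 0.532). Without heat ERF5 averaged 3.41 ± 2.07 CPM in atcyp18-2 and 2.97 ± 1.34 CPM in WT.

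ERF104, a substrate of MPK6 in the flagellin response, was not called in any comparison. It had 3.45, 6.60 and 7.07 CPM in heated atcyp18-2 leaves (20, 55 and 44 reads), against 9.93, 4.89 and 14.3 CPM in atcyp18-2 controls (131, 71 and 164 reads). Control replicate 2 lay within the heated range. In WT it had 9.35, 8.71 and 7.44 CPM after heat (69, 57 and 88 reads) and 7.84, 6.63 and 2.58 CPM without heat (115, 109 and 28 reads). Control replicate 3 stood far below the other WT libraries, and control replicate 1 reached into the heated range. The log2 fold change with heat was -0.75 ± 0.43 in atcyp18-2 (edgeR adjusted p = 0.205) and 0.56 ± 0.42 in WT (edgeR adjusted p = 0.369), where it was -0.27 with library totals in place of TMM. With library totals, under which the median of all genes was -0.76 in atcyp18-2, the value there was -1.49 and was called (edgeR adjusted p = 0.0333).

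The level of ERF104 after heat was 5.71 ± 1.97 CPM in atcyp18-2 and 8.501 ± 0.972 CPM in WT, with every atcyp18-2 library below every WT library. Without heat the order of the means was the other way, at 9.72 ± 4.73 CPM in atcyp18-2 and 5.68 ± 2.76 CPM in WT, with overlapping groups. Between genotypes the log2 fold changes were -0.56 ± 0.44 after heat (edgeR adjusted p = 0.757) and 0.75 ± 0.41 without heat (edgeR adjusted p = 1).

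ERF6, which is induced by reactive oxygen species and activates GA2OX6 in leaves under osmotic stress, had 2.14, 3.65 and 3.61 CPM in heated atcyp18-2 leaves (12, 30 and 22 reads). The atcyp18-2 controls had 0.677, 0.543 and 2.69 CPM (8, 7 and 30 reads). Control replicate 3 lay inside the heated range and the other controls well below it. Its log2 fold change was 1.32 ± 0.53 and was not called (edgeR adjusted p = 0.0727). It was called without atcyp18-2 control replicate 3, at 2.36 (edgeR adjusted p = 0.00252). With the sign of the within-group component as a term, an alternative chosen after seeing the data, it was also called, at 1.34 ± 0.45 (edgeR adjusted p = 0.0181). That sign was drawn from the deviations of these same 12 libraries, so the call under it is not separate support.

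In WT, ERF6 had 1.74, 0.600 and 1.92 CPM after heat (12, 3 and 22 reads) and 1.96, 2.05 and 1.69 CPM without heat (28, 33 and 18 reads). The controls were close together and heated replicate 2 stood below all others. The log2 change with heat was -0.36 ± 0.53 (95% interval -1.51 to 0.78; edgeR adjusted p = 0.664). After heat the level was 3.13 ± 0.863 CPM in atcyp18-2 and 1.42 ± 0.716 CPM in WT, with all atcyp18-2 libraries above all WT libraries, yet the log2 fold change of 1.09 ± 0.54 was not called (edgeR adjusted p = 0.514). Without heat it was -0.59 ± 0.51 (edgeR adjusted p = 1).

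ERF1A was the scarcest member by reads. It had 0.822, 1.06 and 0.942 CPM in heated atcyp18-2 leaves (4, 8 and 5 reads), against 0.150, 0.475 and 1.48 CPM in atcyp18-2 controls (1, 6 and 16 reads). The controls spanned a 9.82-fold range in CPM around the heated libraries. Without the added read, their lowest and highest shares of all reads were 0.110 and 1.63 ppm. In WT it had 0.401, 2.101 and 1.42 CPM after heat (2, 13 and 16 reads) and 1.01, 0.723 and 0.800 CPM without heat (14, 11 and 8 reads). Here the heated libraries enclosed the controls. The log2 fold change with heat was 0.49 ± 0.68 in atcyp18-2 (95% interval -0.97 to 1.95; edgeR adjusted p = 0.62) and 0.62 ± 0.60 in WT (95% interval -0.68 to 1.91; edgeR adjusted p = 0.497), and with library totals it was -0.21 in atcyp18-2 and -0.11 in WT.

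ERF2 had 1.81, 1.297 and 1.41 CPM in heated atcyp18-2 leaves (10, 10 and 8 reads), against 0.677, 0.747 and 2.17 CPM in atcyp18-2 controls (8, 10 and 24 reads). Control replicate 3 lay above the heated libraries and the other controls below them. In WT it had 1.74, 0.600 and 2.51 CPM after heat (12, 3 and 29 reads) and 1.83, 1.69 and 0.444 CPM without heat (26, 27 and 4 reads). The WT groups overlapped over most of their range. The log2 fold change with heat was 0.35 ± 0.61 in atcyp18-2 (edgeR adjusted p = 0.702) and 0.32 ± 0.56 in WT (edgeR adjusted p = 0.719), and with library totals it was -0.38 in atcyp18-2 and -0.43 in WT. Between genotypes, the log2 fold changes of ERF1A and ERF2 ranged from -0.45 to -0.19 with and without heat, each within 1 standard error of 0.

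The order of the 4 groups differed from gene to gene. ERF105 and ERF5 were highest on average in atcyp18-2 controls, followed by WT controls, heated WT and heated atcyp18-2 leaves. The ranges of neighbouring groups overlapped in this order except that heated atcyp18-2 lay wholly below heated WT for ERF5. ERF104 ran in the order atcyp18-2 control, heated WT, heated atcyp18-2 and WT control, and heated atcyp18-2 lay wholly below heated WT. ERF6 ran in the order heated atcyp18-2, WT control, heated WT and atcyp18-2 control, and its heated atcyp18-2 libraries lay wholly above the WT controls. For ERF1A and ERF2 heated WT leaves had the highest mean and atcyp18-2 controls the lowest, with every pair of neighbouring groups overlapping.

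Of the 6, ERF105 and ERF5 were also the only ERF genes of which heated and control libraries did not overlap in atcyp18-2, against 44.8% of all genes in either direction and 22.3% lower. The median log2 fold change of the 6 was -0.20, and that of all genes -0.01. In WT the edgeR test gave 0 of 6 at an unadjusted p below 0.05 (35.7% of all genes), and DESeq2 called 0 of 6 (3941 of 16636 genes). Heated and control libraries of WT overlapped for all 6, whereas they did not overlap for 37.4% of all genes. The median in WT was -0.02 for the 6 and -0.02 for all genes.

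**Figure D2:**
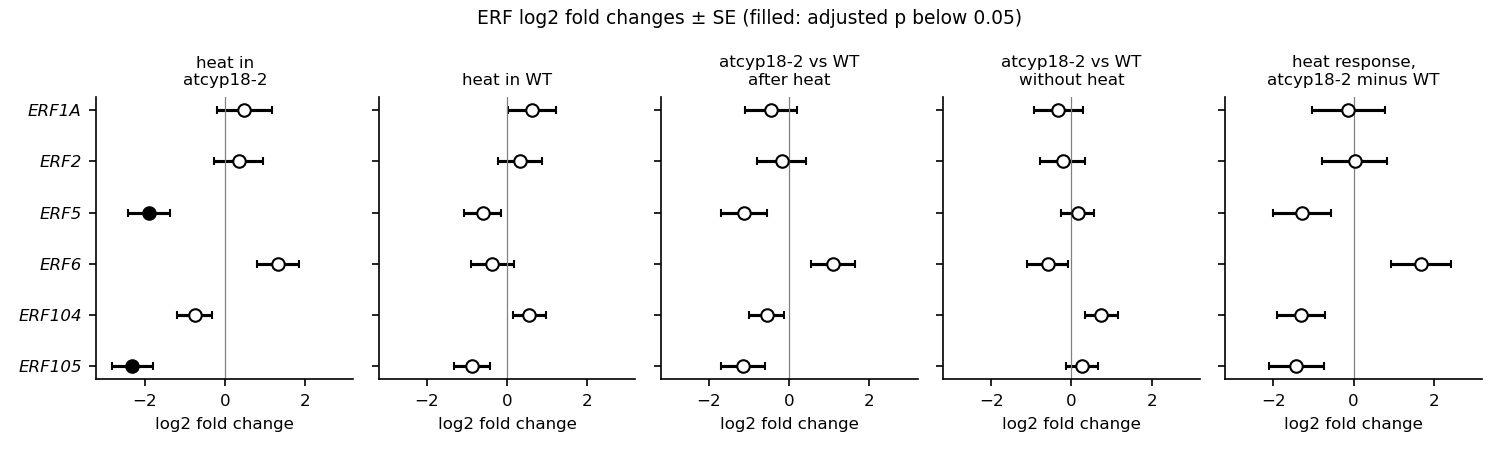
Log2 fold change of each ERF transcript in the 5 comparisons (x axis, log2 scale; bars are ± SE from edgeR), with filled points for an adjusted p below 0.05. Only ERF5 (-1.88) and ERF105 (-2.30) in the comparison of heated with control atcyp18-2 leaves are filled, and with library totals the open points of ERF1A, ERF2 and, in WT, ERF104 change sign in the heat comparisons, as does ERF5 between genotypes without heat.

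Between atcyp18-2 and WT after heat, where edgeR called 37 genes in all, no ERF gene passed an unadjusted p below 0.05 in the edgeR test (10.5% of all genes did). DESeq2, which gave an adjusted p for 1 of 6, called none of the 6 and 218 of all genes. It had 1 of 6 at an unadjusted p below 0.05, and 1510 of 16636 genes. With only the groups compared in the fit, edgeR had 3 of 5 fitted ERF genes at an unadjusted p below 0.05 and called none. In that fit 1331 of 14369 genes passed an unadjusted p below 0.05, and 1 gene was called. ERF5 and ERF104 lay wholly below WT and ERF6 wholly above it, so that 3 of 6 did not overlap, against 14.8% of all genes. Without heat, where edgeR called 4 genes in all, the 6 overlapped between genotypes, with 6.68% of all genes not overlapping. Again none passed an unadjusted p below 0.05 (2.38% of all genes did), and DESeq2, with an adjusted p for 4 of 6, called none of them and 25 of all genes.

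The test of the difference itself, the heat response of atcyp18-2 minus that of WT, called neither an ERF gene nor any other. ERF6 and ERF104 passed an unadjusted p below 0.05, as did 912 of all genes (5.48%). DESeq2 called 30 of all genes and gave no adjusted p for the 6, of which 3 passed an unadjusted p below 0.05, as did 697 of 16636 genes. The difference was 1.68 ± 0.75 for ERF6 (edgeR adjusted p = 0.902) and -1.31 ± 0.60 for ERF104 (edgeR adjusted p = 0.907) on the log2 scale. For ERF105 it was -1.42 ± 0.68 (edgeR adjusted p = 0.926) and for ERF5 -1.28 ± 0.71 (edgeR adjusted p = 0.94). The 95% intervals were 0.07 to 3.30 for ERF6, -2.61 to -0.01 for ERF104, -2.90 to 0.05 for ERF105 and -2.83 to 0.26 for ERF5. ERF1A and ERF2 were at -0.13 ± 0.92 and 0.03 ± 0.81, and ERF2 changed sign with DESeq2 size factors (-0.044). The fall of ERF105 and ERF5 in atcyp18-2 is therefore not shown to differ from the change in WT.

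Among replicates of 1 group, several of the 6 transcripts had their highest or lowest level in the same library. atcyp18-2 control replicate 3 had the highest level of its group for 5 of 6 genes, and replicate 2 the lowest for 4. WT control replicate 3 was lowest for 5 of 6, and heated atcyp18-2 replicate 2 was highest for 4. Summed over the 6 genes, the libraries had 10.03, 15.3 and 14.8 CPM in heated atcyp18-2, 17.9, 15.9 and 18.7 CPM in heated WT, 22.7, 10.8 and 33.8 CPM in atcyp18-2 controls and 21.9, 21.0 and 10.3 CPM in WT controls. These sums, to which ERF104 and ERF105 contribute most in the controls, spread more among controls than among heated libraries. Gene by gene, the ratio of the highest to the lowest library was larger among controls for all 6 genes in atcyp18-2, but in WT it was larger among heated libraries for ERF1A (5.24 in heated, 1.40 in control), ERF6 (3.2 and 1.21), ERF105 (2.72 and 1.83) and ERF2 (4.18 and 4.11). As a description over 12 libraries that share these group means, depths and scaling, the deviations from the group mean had a positive Pearson r in 14 of 15 pairs of genes (-0.16 to 0.83, median 0.53), with ERF5 and ERF104 at 0.83 and ERF1A and ERF105 at -0.16. Pairs of other genes were not compared in this way. It is therefore not shown that the 6 vary together more than other genes, which share the component that holds 52.6% of the within-group variance.

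**Figure D3:**
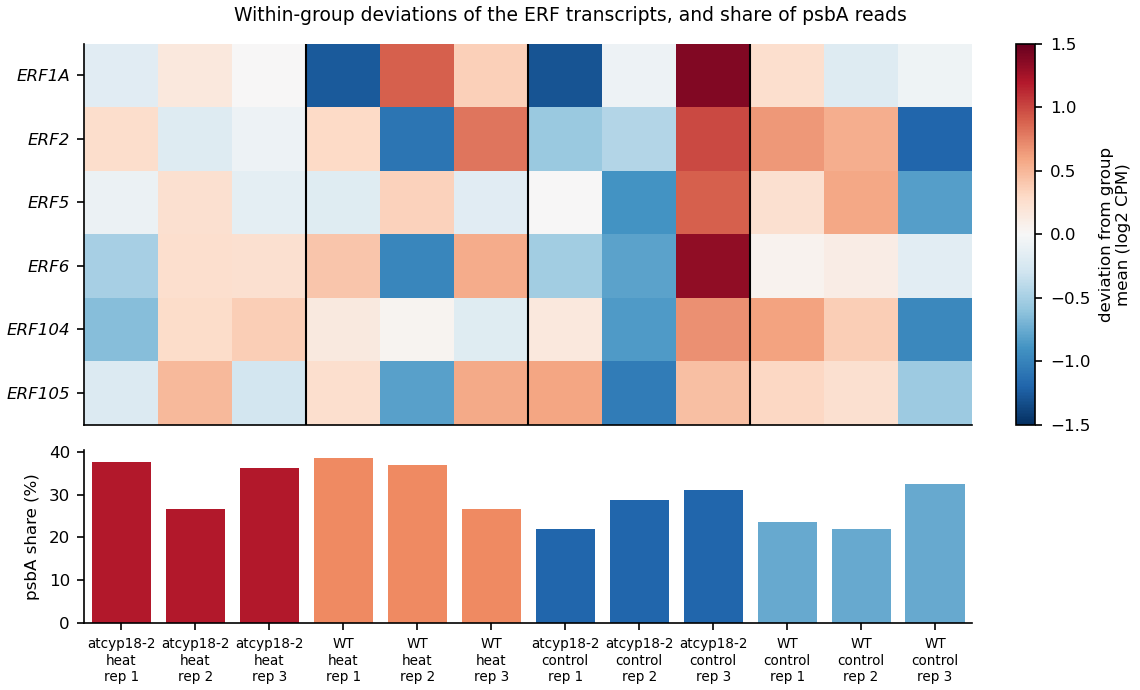
Upper panel: deviation of each ERF transcript from its group mean (log2 CPM; red above, blue below) in the 12 libraries. Lower panel: share of reads from psbA in the same libraries (%, axis from 0). atcyp18-2 control replicate 3 is the most uniformly red column and WT control replicate 3 is blue in all 6 rows, with psbA shares of 31.16 and 32.62%.

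Libraries were also split by the sign of their score on the within-group component, and heated and control levels were compared within each side. In libraries with a negative score, the log2 ratio of heated to control levels in atcyp18-2 was -2.26 for ERF105 and -1.43 for ERF5 (1 library each), and in those with a positive score it was -2.09 for ERF105 and -1.78 for ERF5 (2 libraries each). The sides were drawn from these same libraries and the negative side has no replicates, so these ratios are descriptions, and the part of the component in the ERF values was not tested. In WT the 2 sides gave -0.66 and -0.69 for ERF105, but -1.03 (1 heated, 2 control libraries) and 0.46 (2 heated, 1 control) for ERF5. ERF6 in atcyp18-2 was at 2.28 on the negative and 1.11 on the positive side. ERF104 in WT was at 0.05 on the negative and 1.77 on the positive side, where control replicate 3 was the only control. Cell type markers also moved with heat in both genotypes. In atcyp18-2, CAB3, 1 of 3 mesophyll markers, was higher (log2 fold change 1.02, edgeR adjusted p = 0.00998). It was at 1775 ± 369 CPM in heated and 876 ± 161 CPM in control atcyp18-2 leaves. The 3 mesophyll markers ranged from -0.45 to 1.02, and only CAB3 was called. PYK10 (above) and ML1, 1 of 3 epidermal markers, were lower (ML1 -0.48), and none of 4 guard-cell or 3 phloem markers was called. With library totals CAB3 was at 0.25 and was not called (edgeR adjusted p = 0.0943), and leaving out 1 library ended the call of ML1 for 7 of the 12 libraries and that of PYK10 for 4. Summed mesophyll markers were at 6520 to 9570 CPM in heated atcyp18-2 and 5999 to 8980 CPM in its controls. Summed epidermal markers were at 153.7 to 192.7 CPM in heated atcyp18-2 and 171 to 217.3 CPM in its controls, and guard-cell markers at 6.74 to 8.61 CPM in heated and 7.74 to 12.8 CPM in control atcyp18-2 leaves. In WT, 1 of 3 mesophyll markers was called higher with heat (range -0.16 to 0.98). There 1 of 3 epidermal markers, 1 of 4 guard-cell markers and PYK10 were called lower. No fitted marker was called for the difference of the heat responses. The part of these markers in the ERF values was not tested.

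Levels of different genes were compared per kilobase of the RefSeq transcript, since the transcripts differ in length (965 bases for ERF105 to 1389 for ERF104). Each of the 6 has 1 annotated RefSeq transcript with 1 exon, hence no annotated intron. In heated leaves ERF104 had the highest level per length, at 4.11 ± 1.42 CPM per kb in atcyp18-2 and 6.12 ± 0.699 in WT. In heated atcyp18-2, ERF6 followed at 2.34 ± 0.645, and its range overlapped that of ERF104. ERF105 (1.24 ± 0.411), ERF2 (1.15 ± 0.204), ERF1A (0.792 ± 0.1003) and ERF5 (0.683 ± 0.115) came next, with neighbouring ranges that overlap except between ERF2 and ERF1A. In heated WT the range of ERF104 lay above those of all 5 others, which had means of 1.06 to 2.75 CPM per kb. Without heat ERF104 and ERF105 were the 2 highest, with ERF104 at 6.996 ± 3.40 CPM per kb in atcyp18-2 and 4.09 ± 1.99 in WT and ERF105 at 6.33 ± 3.19 in atcyp18-2 and 5.19 ± 1.55 in WT, and their ranges overlapped in both genotypes.

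Over the 12 libraries, log2 CPM of ERF5 and ERF105 had a Pearson r of 0.84, the highest among the 15 pairs. ERF105 ranked 60 of 15554 genes by likeness to ERF5, and ERF5 ranked 582 by likeness to ERF105. ERF2 and ERF6 had an r of 0.63 (ranks 137 and 128). Group means enter these values: for deviations from the group mean, ERF5 and ERF105 had an r of 0.55. Over log2 CPM, 12 of 15 pairs were positive, with a median r of 0.105 and a lowest of -0.32 (ERF1A and ERF105). The mean profile of the 6 therefore averages transcripts of which many are little alike. Among the 10 genes most like the mean standardised profile of the 6 were NSP4 (r = 0.85), AT2G26190 (0.84), JAZ5 (0.84), CYP81F4 (0.82), PES2 (0.81), OPCL1 (0.80), JAZ6 (0.80), ASA1 (0.80) and PGL5 (0.80), out of 15549 genes ranked. JAZ5 and JAZ6 encode repressors of jasmonate signalling, OPCL1 an enzyme of jasmonate synthesis, CYP81F4 an enzyme of indole glucosinolate metabolism and ASA1 an enzyme of tryptophan synthesis. None of these named genes was called after heat in either genotype by edgeR, and CYP81F4 had the lowest fold change in atcyp18-2 (log2 fold change -2.54, edgeR adjusted p = 0.096).

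Neighbours were taken among protein-coding genes of the RefSeq annotation of TAIR10.1. By this measure ERF1A and ERF6 are adjacent on chromosome 4, and in atcyp18-2 their heat responses were 0.49 and 1.32. On chromosome 5, ERF2 and ERF5 have a single protein-coding gene between them, AT5G47229, which was not among the genes fitted. The responses of ERF2 and ERF5 in atcyp18-2 were 0.35 and -1.88. ERF104 lies beside another group IX gene, ERF107, at 12.7 ± 6.79 CPM in heated and 7.29 ± 3.21 CPM in control atcyp18-2 leaves and 6.95 ± 3.11 CPM in heated and 2.65 ± 1.21 CPM in control WT leaves. ERF107 was not called in atcyp18-2 (log2 fold change 0.82, edgeR adjusted p = 0.184) or WT (1.39, edgeR adjusted p = 0.0536). AT5G47210, beside ERF2, was lower after heat in atcyp18-2 (-1.13, edgeR adjusted p = 0.000101) and WT (-0.86, edgeR adjusted p = 0.00118), and AT5G51180, beside ERF105, was higher in atcyp18-2 (0.68, edgeR adjusted p = 0.0109) and WT (0.72, edgeR adjusted p = 0.0102). Counting by strand is not stated, so reads of overlapping neighbours cannot be told apart.

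Other genes of the pathway were counted from lists. Of 11 other group IX factors, 5 had enough reads. In atcyp18-2, ORA59, which joins jasmonate and ethylene signals, rose and ERF13 and ERF106 fell. ORA59 had 2.37 ± 0.255 CPM in heated and 0.575 ± 0.366 CPM in control atcyp18-2 leaves (log2 fold change 2.04 ± 0.55, edgeR adjusted p = 0.0122). ERF13 was at 0.604 ± 0.337 CPM in heated and 2.92 ± 1.73 CPM in control atcyp18-2 leaves (-2.29 ± 0.69, edgeR adjusted p = 0.022), and ERF106 at 5.53 ± 1.19 CPM in heated and 11.4 ± 2.96 CPM in control ones (-1.04 ± 0.25, edgeR adjusted p = 0.00634). In WT, ERF15 was the 1 gene called of these 5, and it fell (-1.89 ± 0.50, edgeR adjusted p = 0.0156). Leaving out 1 library ended the call of ERF13 without heated atcyp18-2 replicate 2 (-1.97, edgeR adjusted p = 0.0843) or 3 (-2.19, 0.0673) or control replicate 3 (-1.75, 0.0808), and that of ERF15 without heated WT replicate 3 (-1.66, 0.0669) or WT control replicate 1 (-1.51, 0.0642). With library totals ORA59 was at 1.32 and was not called (edgeR adjusted p = 0.0818). The list's median was -0.21 in atcyp18-2 and -0.59 in WT. ERF3, 1 of 5 fitted repressor ERFs with an EAR motif, rose in atcyp18-2 (1.104 ± 0.24, edgeR adjusted p = 0.00336) and in WT (0.81 ± 0.24, edgeR adjusted p = 0.0264). With library totals ERF3 was not called (0.34 in atcyp18-2 and 0.061 in WT), and in WT the call ended without heated replicate 1 (0.81, adjusted p = 0.0593) or 2 (0.66, 0.11) or control replicate 1 (0.81, 0.0624) or 2 (0.63, 0.103). No other repressor of the list was called, and the median over the 5, ERF3 included, was 1.08 in atcyp18-2 and 0.58 in WT.

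**Figure D4:**
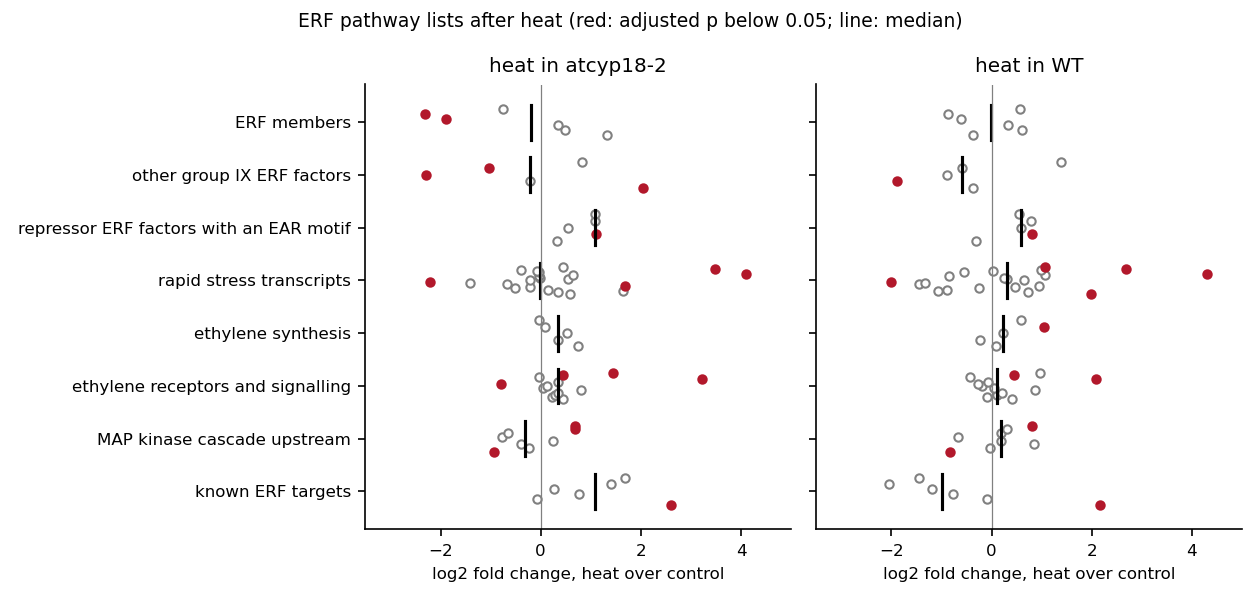
Log2 fold change with heat (x axis) of every fitted gene of 8 lists in atcyp18-2 (left) and WT (right), with red points for an edgeR adjusted p below 0.05 and a bar at each list's median. The median of the ERF members is -0.20 in atcyp18-2 and -0.02 in WT, and red points lie on both sides of 0 in several lists. With library totals CTR1 changes sign in both genotypes, and MPK4 and MEKK1 do so in atcyp18-2.

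Of 25 rapid stress transcripts, 21 were fitted. In atcyp18-2 the zinc-finger genes ZAT6 (4.11 ± 0.32, edgeR adjusted p = 7.26e-07) and ZAT12 (3.48 ± 0.40, edgeR adjusted p = 2.5e-05) and the calmodulin-like gene TCH3 (1.69 ± 0.52, edgeR adjusted p = 0.026) rose, and the deadenylase gene CAF1A fell (-2.21 ± 0.39, edgeR adjusted p = 0.000868). In WT, ZAT6 (4.29), ZAT12 (2.68), DREB26 (1.99) and MYB44 (1.08) rose and CAF1A fell (-2.005). The median was -0.02 in atcyp18-2 and 0.30 in WT. Leaving out 1 library ended the call of TCH3 for 3 of the 12 libraries and that of DREB26 for 3.

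Ethylene synthesis had 5 fitted genes of 14. None was called in atcyp18-2 by edgeR, with 1 at an unadjusted p below 0.05, and ACS11 rose in WT (1.05, edgeR adjusted p = 0.0371). All 13 receptor and signalling genes were fitted. ETR2, an ethylene receptor whose transcript is ethylene-inducible, had 3.68 ± 1.55 CPM in heated and 0.376 ± 0.203 CPM in control atcyp18-2 leaves, and 2.45 ± 0.382 CPM in heated and 0.564 ± 0.101 CPM in control WT leaves. It rose in atcyp18-2 (3.22 ± 0.42, edgeR adjusted p = 8.3e-05) and in WT (2.08 ± 0.40, edgeR adjusted p = 0.00234). EBF2, an F-box protein that removes EIN3, rose in atcyp18-2 (1.44 ± 0.41, edgeR adjusted p = 0.0173), and the receptor gene EIN4 fell there (-0.79 ± 0.26, edgeR adjusted p = 0.0327). The kinase gene CTR1 rose slightly in both (0.45 in atcyp18-2 and 0.44 in WT), but with library totals it was at -0.32 in atcyp18-2 and -0.29 in WT, and leaving out 1 library ended its call for 8 of the 12 libraries in the atcyp18-2 comparison and for 10 in the WT comparison. Leaving out 1 library likewise ended the call of EIN4 for 4 libraries, EBF2 for 2 and ACS11 for 5.

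Among 8 genes of the MAP kinase cascade, MKK4 fell in atcyp18-2 (-0.93 ± 0.27, edgeR adjusted p = 0.0201) and WT (-0.84 ± 0.26, edgeR adjusted p = 0.0351). MPK4 (0.68) and MEKK1 (0.69) rose in atcyp18-2, with values of -0.055 and -0.081 under library totals, and MEKK1 (0.80) rose in WT. Leaving out 1 library ended the call of MKK4 for 4 libraries in each genotype and that of MEKK1 for 4 in atcyp18-2 and 2 in WT. MPK3, a kinase of ERF6, was at 21.0 ± 2.05 CPM in heated and 32.8 ± 10.3 CPM in control atcyp18-2 leaves and was not called. Of 10 known ERF targets, 6 were fitted and GA2OX6, a gibberellin-inactivating enzyme gene and target of ERF6, was the 1 called in each genotype. It had 6.64 ± 3.06 CPM in heated and 1.097 ± 0.200 CPM in control atcyp18-2 leaves (2.61 ± 0.43, edgeR adjusted p = 0.000503), and 8.38 ± 3.90 CPM in heated and 1.87 ± 0.665 CPM in control WT leaves (2.16 ± 0.39, edgeR adjusted p = 0.00151). ERF6 itself was not called in either genotype. None of the genes of these 7 lists was called by edgeR between genotypes, with or without heat, or for the difference of the heat responses. In the edgeR test, 0 to 4 genes of a list had an unadjusted p below 0.05. Of all genes, 10.5% did so after heat, 2.38% without heat and 5.48% for the difference. Without heat they were 4 of 21 fitted rapid stress transcripts, 2 of 6 fitted ERF targets and 0 or 1 gene of each other list.

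The dependence of the 4 largest heat responses in atcyp18-2 on settings was followed for ERF5, ERF105, ERF6 and ERF104. ERF5 ranged from -2.61 to -1.89 and ERF105 from -3.06 to -2.19 over the alternatives other than leaving out a library, and both remained called in each (edgeR or DESeq2 adjusted p = 0.00373 to 0.0355 for ERF5 and 4.02e-05 to 0.0105 for ERF105). ERF6 was between 0.61 and 1.44, and ERF104 between -1.49 and -0.73.

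**Figure D5:**
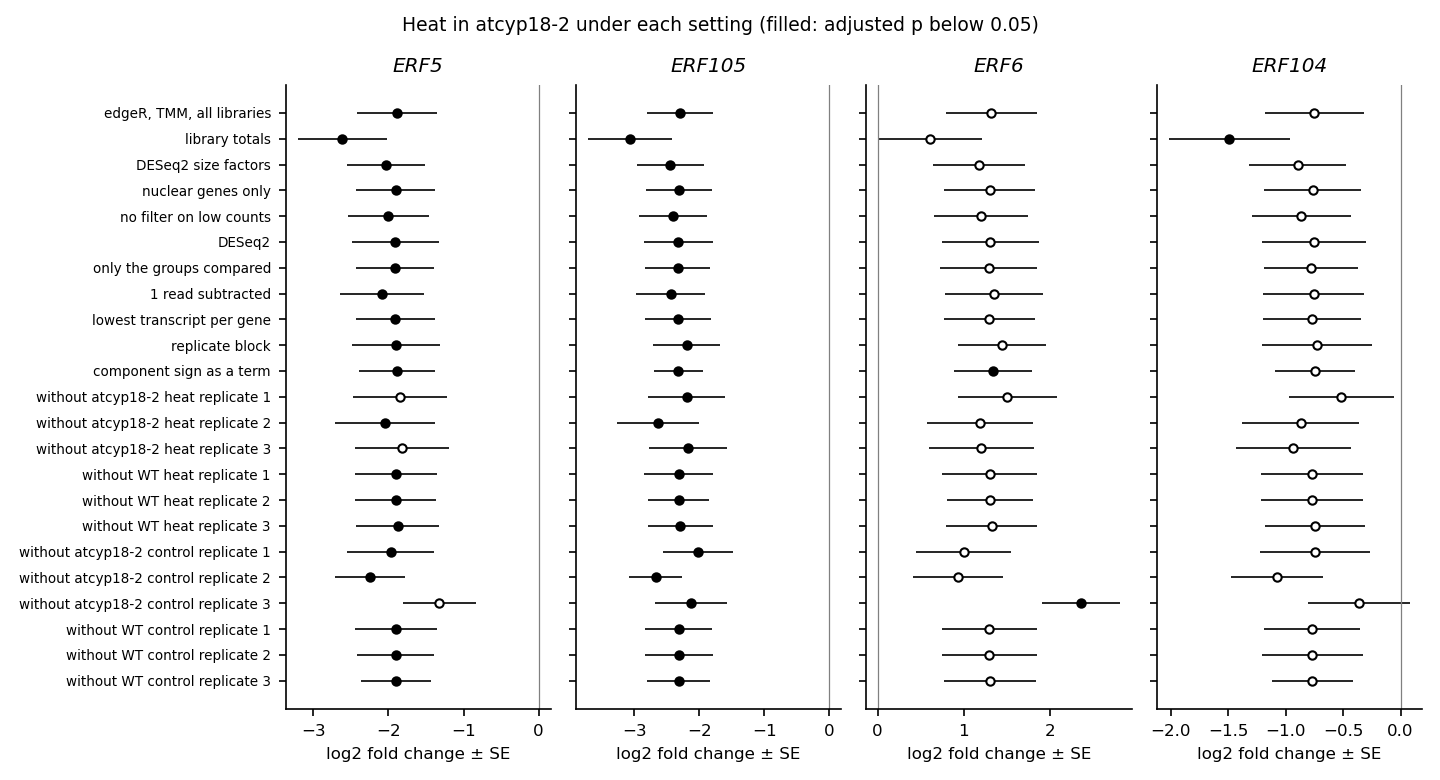
Log2 fold change ± SE with heat in atcyp18-2 (x axis) for ERF5, ERF105, ERF6 and ERF104 under each processing setting and with each library left out (rows), with filled points for an adjusted p below 0.05. ERF105 is filled in every row, ERF5 is open in 3 rows (-1.84, -1.82 and -1.32), ERF6 is filled in 2 (1.34 and 2.36) and ERF104 in 1 (-1.49).

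In the authors' deposited table for heat in atcyp18-2, a list of 1649 genes, ERF105 was the 1 ERF member, with a log2 difference of -2.35 and an adjusted p of 0.0067. The authors' deposited table for heat in WT (1020 genes) and those for the mutant against WT after heat (4 genes) and without heat (7 genes) hold none of the 6.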

How the data were processed

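The series table, as the authors deposited it, gives whole counts per transcript, raw data per the file headers. Its lowest count is 1, and no transcript is at that value throughout, so 1 read appears to have been added to every count. It was subtracted from the read numbers and plain shares of reads printed, but not from the counts behind CPM and the tests. The submitters' processing notes name HTSeq and DESeq. Aligner, genome build and annotation release: not given in the sources used here, so no coordinates or sequences are printed and the planned promoter motif search was not run. The authors' log2 fold changes and adjusted p-values come from their deposited tables. The 12 columns of the authors' normalized values were not used.

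For each of 23174 genes (23160 with an annotated transcript) the annotated transcript with the highest total was used. Counts as deposited were fitted in edgeR 4.0.16 (R 4.3.3) with TMM, filterByExpr by group and a coefficient for each of the 4 groups, which left 8 residual degrees of freedom. SE is the log2 fold change over the root of F. The design assumed counts per gene, and these counts per transcript took their place. The script was also tested on simulated counts. Replicate libraries differed by more than sampling noise (chi-square of at least 2.36 per degree of freedom), so no library was taken for a second deposit of another, and each entered the fit as 1 sample. Library sizes limit precision: with 1 to 164 reads per ERF gene and library, counting error is large. Alternatives were library totals, DESeq2 size factors, DESeq2 1.42.0, nuclear genes only, no filter, 1 read subtracted, another transcript, only the groups compared, the replicate number as a block, each library left out and, added after seeing the data, the component sign. Named genes were all 6 members, called list genes (at most 6 per list), neighbours and the 10 most alike genes, of which 1 is not reported here. The members and lists were chosen with earlier results of these data known.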

Additional observations from a re-analysis of the deposited data

Results flagged for a closer look

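With TMM, the heat responses of ERF104 pointed in opposite directions, whereas with library totals both were negative (-1.49 in atcyp18-2 and -0.27 in WT). All 3 heated atcyp18-2 libraries (3.45, 6.60 and 7.07 CPM) lay below the mean of the atcyp18-2 controls (9.72 CPM), and all 3 heated WT libraries (9.35, 8.71 and 7.44 CPM) lay above the mean of the WT controls (5.68 CPM). The difference of the log2 fold changes was -1.31 (edgeR adjusted p = 0.907 over 16636 genes), so it did not pass the correction. Without atcyp18-2 control replicate 3 it was -0.92, and without replicate 2 of that group -1.64. Without WT control replicate 3 the difference was -0.99, and the WT response alone was 0.22 in place of 0.56. WT control replicate 3 was low (2.58 CPM) and had a psbA share of 32.62%. By contrast, atcyp18-2 control replicate 3, with a psbA share of 31.16%, had the highest ERF104 level of its group (14.3 CPM). The part of either library, or of the psbA share, in the ERF104 values was not tested.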

How the results depend on the processing

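ERF5 and ERF105 stayed lower after heat in atcyp18-2 under every alternative run, and ERF5 lost its call only when 1 of 3 libraries was left out. Library totals in place of TMM moved the median of all genes to a log2 fold change of -0.76 with heat in atcyp18-2 and -0.77 in WT, and called 8419 genes in atcyp18-2 (1010 higher, 7409 lower), against 5358 with TMM (2812 higher, 2546 lower). In WT it called 8299 (799 higher, 7500 lower), against 3911 (2200 higher, 1711 lower). Beside these medians, it called 2 ERF members in WT, ERF5 (-1.41, edgeR adjusted p = 0.0441) and ERF105 (-1.63, edgeR adjusted p = 0.0365), and turned ERF1A (-0.21), ERF2 (-0.38), CTR1 (-0.32), MPK4 (-0.055) and MEKK1 (-0.081) in atcyp18-2, ERF1A (-0.11), ERF2 (-0.43), ERF104 (-0.27) and CTR1 (-0.29) in WT, and ERF5 between genotypes without heat (-0.0030). It called 6 genes between genotypes after heat and 0 without heat. The component sign as a term called 8526, 7005, 1232, 68 and 179 genes for heat in atcyp18-2, heat in WT, the mutant against WT after heat, without heat, and the difference of the heat responses, and turned ERF2 in the last (-0.13), as did DESeq2 size factors (-0.044). The sign was drawn from the deviations of these same libraries from their group means, so the counts under it are descriptions. After heat the mutant against WT gave 37 genes, 24 with no filter, 218 with DESeq2, 1 with only the groups compared and 3 with the replicate block. Without heat it gave 4 genes, 7 with nuclear genes only, 25 with DESeq2, 1 with only the groups compared and 1 with the replicate block. DESeq2 called 30 genes for the difference of the heat responses. The TMM factors, which library totals leave out, were 0.669 to 1.021 in heated and 1.084 to 1.506 in control libraries. Why these factors differ, and the cause of the shifts under the other settings, was not tested.

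The deviations from the group means showed no pairing by replicate number. Of 18 same-number pairs, 7 had a correlation of deviations over 0.1 (-0.64 to 0.50), and 1 of 12 libraries correlated best with its own number. The shared component holds 52.6% of the within-group variance, so these correlations cannot settle whether the numbers pair the samples. The replicate block called 4502 genes with heat in atcyp18-2 and 3044 in WT, left ERF5 and ERF105 as the 2 called members, and turned ERF1A in the difference of the heat responses (0.10).

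With 1 library left out, 4219 to 5656 genes were called with heat in atcyp18-2, 2648 to 4114 in WT, 2 to 39 between genotypes after heat, 0 to 10 without heat and 0 for the difference, and 1 to 2 ERF members in atcyp18-2. Without atcyp18-2 control replicate 3 the 2 were ERF105 and ERF6. ERF1A ranged over -0.0050 to 1.54 with heat in atcyp18-2, -1.37 to 0.16 between genotypes without heat and -0.63 to 0.92 for the difference. ERF2 ranged over -0.19 to 0.66 with heat in WT, -0.55 to 0.32 and -0.91 to 0.061 between genotypes after and without heat, and -0.34 to 0.73 for the difference. Without heat, ERF5 ranged over -0.40 to 0.51 and ERF105 over -0.027 to 0.64. In all, 19 of 360 such values of the members changed sign, all in comparisons where they were not called. Among called list genes and AtCYP18-2, 59 of 444 values with 1 library left out lost the call. Under the other alternatives, 31 of 370 lost it with the same sign, and 4 more changed sign and were not called. With heat in atcyp18-2, library totals ended the calls of ORA59, ERF3, TCH3, EBF2 and AtCYP18-2, and of CTR1, MPK4 and MEKK1, which changed sign. With heat in WT they ended those of ERF3, DREB26, MYB44, ACS11 and MEKK1, and of CTR1, which changed sign. The replicate block ended the calls of TCH3, EIN4 and CTR1 in atcyp18-2 and of ACS11, CTR1 and MKK4 in WT, and DESeq2 size factors ended those of CTR1 and MEKK1 in atcyp18-2 and of ACS11 and CTR1 in WT. ERF1A had 1 to 16 reads a library and ERF2 3 to 29, with biological coefficients of variation of 0.437 and 0.439, and how depth and this spread share in their wide intervals was not tested.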
